A study of Mus musculus with 8 samples.

Results

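The transcripts of 37 DNA replication genes were followed in lung endothelial cells (ECs) of neonatal mice. The genes were taken by symbol from a named list that covers S phase from the marking of replication origins to the copying of chromatin behind the fork. All 37 were found among the 54532 genes of the deposited table, and all 37 passed the filter on low counts, which left 15564 genes to test. The list names genes by their role and sets no threshold on measured values, but it was drawn up with earlier results of these data known. The pups were wild type (WT), of the C57BL/6J strain per the study's methods, and 14 days old. From birth to day 14 they breathed either room air (normoxia, 21% O2) or hyperoxia (80% O2), and each group held 4 bulk RNA-seq libraries. Lung cells had been depleted of CD45-positive leukocytes, and the cells that bound beads against the endothelial surface protein CD31 were collected, so the isolate is enriched for ECs and can hold other cells that pass the beads. Neither the number of pups behind a library nor their independence was given in the sources used here, so p-values measure only the spread between these libraries, which may be technical.

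DNA replication begins in G1, when the origin recognition complex, Cdc6 and Cdt1 load the MCM helicase onto origins. Cdc45 and the GINS complex then turn that helicase on at the start of S phase, DNA polymerases copy both strands, and PCNA, a sliding clamp set in place by the RFC loader, holds polymerases to the template. E2F transcription factors switch on most of these genes when a cell leaves G1, so their transcripts mark cells entering or passing through S phase. In the lung of the mouse, the capillary network expands during the first postnatal weeks while alveoli form, and ECs divide in that period. In bulk RNA, fewer cells of a kind and less RNA per cell cannot be told apart, and the share of ECs in S phase was not measured here.

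Of the 37 replication genes, 11 rose at an adjusted p under 0.05 (29.7%), 26 did not pass the test and none fell, against 18.5% of all tested genes that rose and 17.1% that fell in the same comparison, together 35.6%. The risen genes were Mcm5, Cdc45, Mcm10, Pole, Rfc5, Lig1, Rrm1, Tyms, E2f1, Uhrf1 and Chaf1a, with log2 fold changes between 0.29 and 0.51. No member reached an absolute log2 fold change of 1, which 6.98% of all tested genes did. The log2 fold change was above 0 for 32 of the 37 members (86.5%) and for 49.5% of all tested genes. Its median over the members was 0.20, in a range from -0.19 to 0.51, beside a median of -0.0040 over all tested genes. The count of 32 members above 0 was 29 without the library normoxia 1, 24 without hyperoxia 3 and 22 without both. It was 31 to 33 when any other single library was left out. The median over all tested genes was -0.0061 without hyperoxia 3 and -0.0083 without both. The count of 0 members lower came from edgeR's quasi-likelihood test. DESeq2 and limma-voom also gave 0. At an unadjusted p under 0.05 from edgeR, 0 members were lower, beside 3451 of the 15564 genes tested.

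**Figure D1:**
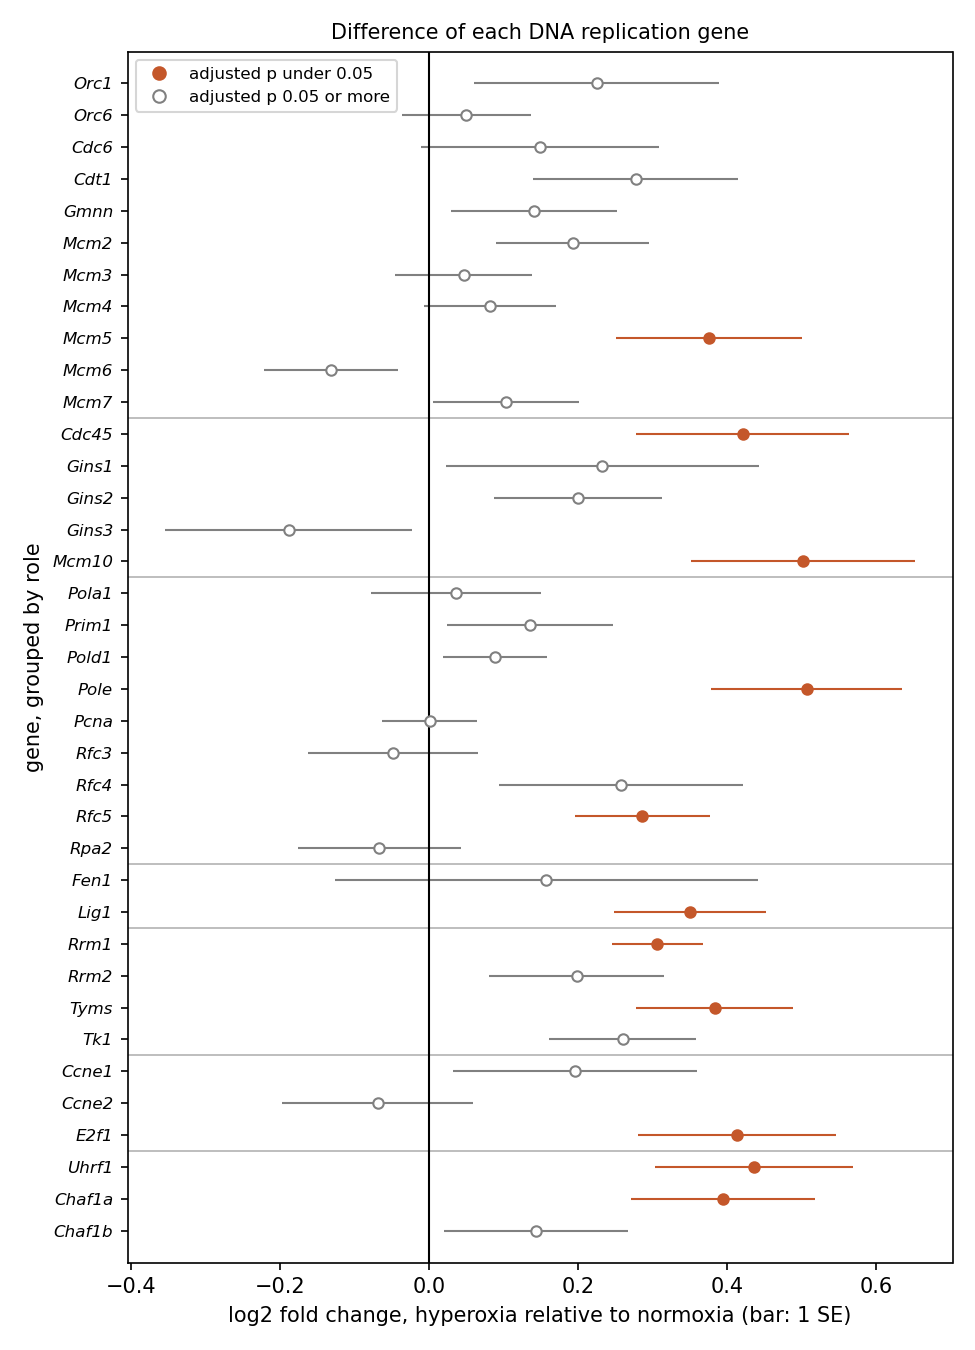
Log2 fold change of each of the 37 DNA replication genes in hyperoxia relative to normoxia (x axis), grouped by role, with bars for the standard error and filled points for an adjusted p under 0.05. The 11 filled points lie between 0.29 and 0.51, all to the right of 0, and the 5 points to the left of 0 are open.

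The count of risen members depended on single libraries. Hyperoxia 3 had the highest value of the 4 hyperoxia libraries in 31 of 37 members (83.8%), where it was the highest in 27.5% of all tested genes, and its members lay a median of 0.30 log2 units above the other hyperoxia libraries. Normoxia 1 had the lowest value of the 4 normoxia libraries in 24 of 37 members (64.9%, against 23.5% of all tested genes), a median of 0.19 log2 units below the others. As a mean over the members, relative to the normoxia mean, the libraries stood at -0.16, -0.014, 0.094 and 0.075 log2 units in normoxia 1 to 4, and at 0.11, 0.14, 0.41 and 0.096 in hyperoxia 1 to 4. On that scale hyperoxia 3 stood far above the rest, and the other hyperoxia libraries lay just above the highest normoxia library. Without hyperoxia 3, 5 members passed the test as higher (Mcm10, Pole, Lig1, Rrm1 and Tyms), 13.5% of the members beside 17.6% of all tested genes. Mcm6 then passed it as lower, at a log2 fold change of -0.22 and an adjusted p of 0.0435 by edgeR. Without normoxia 1, 4 members passed as higher (Mcm10, Pole, Rrm1 and Tyms), 10.8% beside 17.2% of all tested genes. Leaving out normoxia 2 left 5 (13.5% beside 17.2% of all tested genes), leaving out normoxia 4 left 7 (18.9% beside 16%) and leaving out hyperoxia 2 left 4 (10.8% beside 15.1%). The share of members called was thus above that of all tested genes with all 8 libraries, and below it in 4 of the 8 analyses that left out 1 library. The members' median log2 fold change was 0.20 with all 8 libraries. In those 4 analyses it was 0.16 without normoxia 1, 0.18 without normoxia 2, 0.22 without hyperoxia 2 and 0.10 without hyperoxia 3. Without both normoxia 1 and hyperoxia 3, 2 members passed (Pole and Rrm1), which is 5.41% of the members beside 16.9% of all tested genes, and the median over the members was 0.049. Pole and Rrm1 kept an adjusted p under 0.05 in every one of the 16 alternative analyses. Tyms lost it in 1 of the 16, Mcm10 in 3 and Lig1 in 4. E2f1 and Uhrf1 lost it in 5, Mcm5 and Chaf1a in 6, and Cdc45 and Rfc5 in 7.

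**Figure D2:**
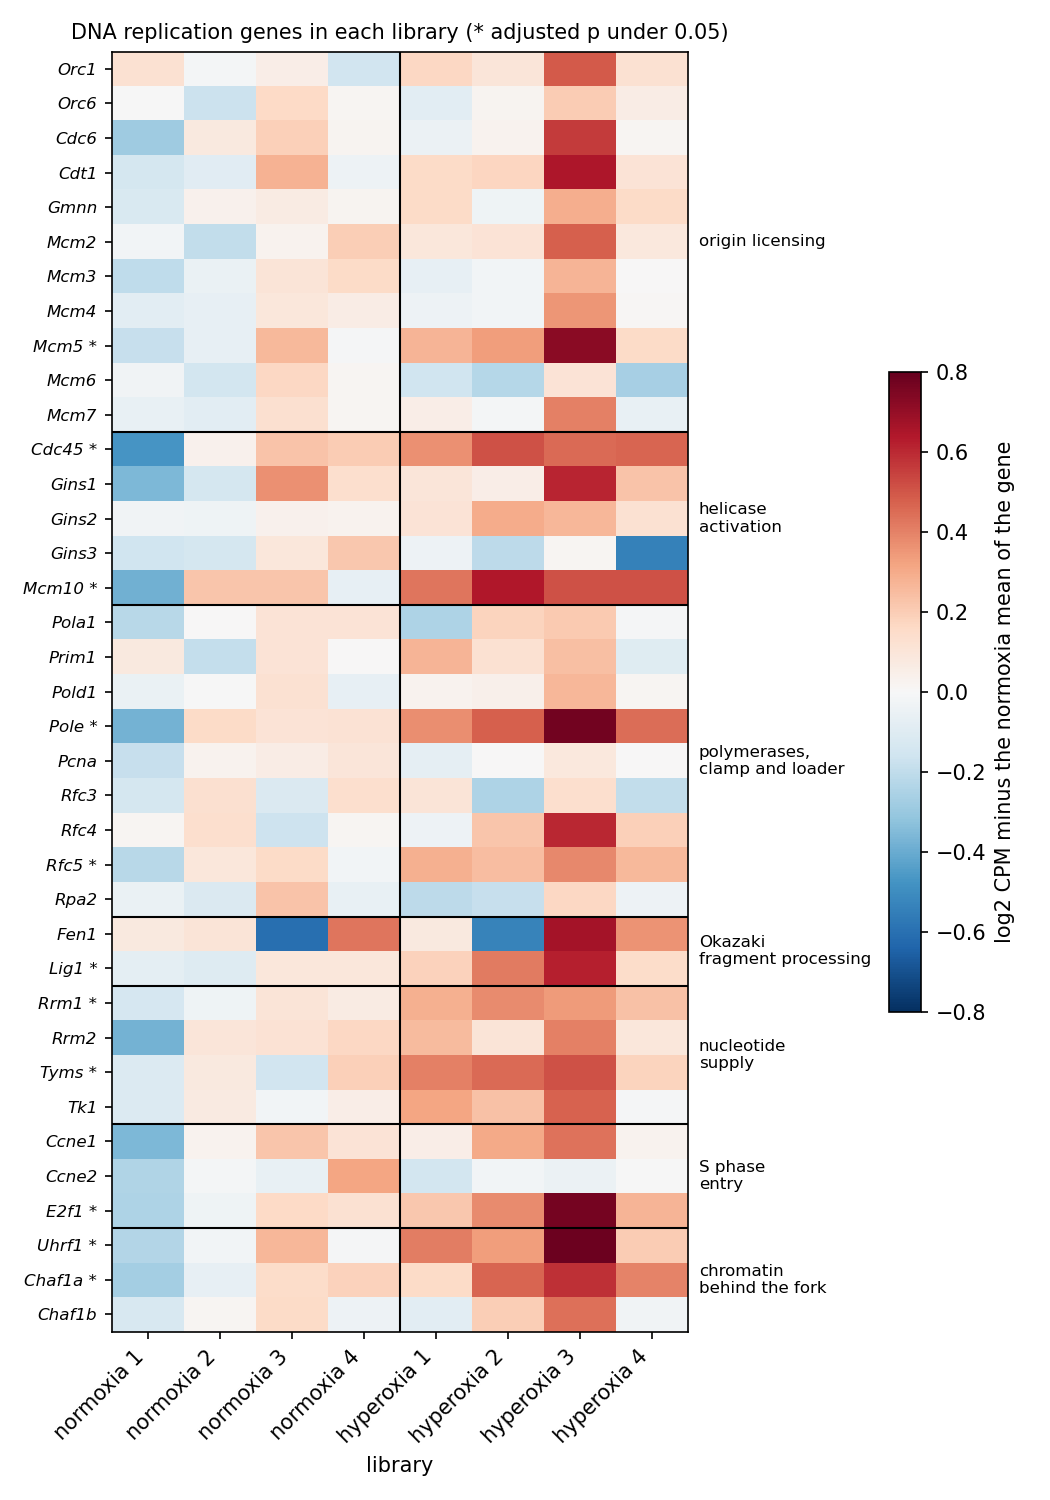
Log2 CPM (counts scaled to a common library size) of each DNA replication gene (rows, grouped by role) in each of the 8 libraries (columns), shown as the difference from the mean of the 4 normoxia libraries on a colour scale. Hyperoxia 3 is the highest hyperoxia library in 31 of the 37 rows and normoxia 1 the lowest normoxia library in 24.

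Levels between genes were compared as deposited FPKM, which divides counts by gene length. Pcna was the most abundant member, at 55.2 ± 4.57 FPKM in normoxia and 55.5 ± 2.57 FPKM in hyperoxia (SD, n = 4). Mcm3 followed at 22.7 ± 2.49 and 23.5 ± 2.66 FPKM, while Mcm10 was the lowest at 0.626 ± 0.117 and 0.891 ± 0.0574 FPKM. The members' median level was 4.26 FPKM, close to the 4.37 FPKM of all tested genes. Counts per member and library ran from 28 for Fen1 to 2579 for Pcna, so the lowest members carried the widest counting error. The within-group SD of log2 CPM had a median of 0.175 over the members and 0.145 over all tested genes.

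**Figure D3:**
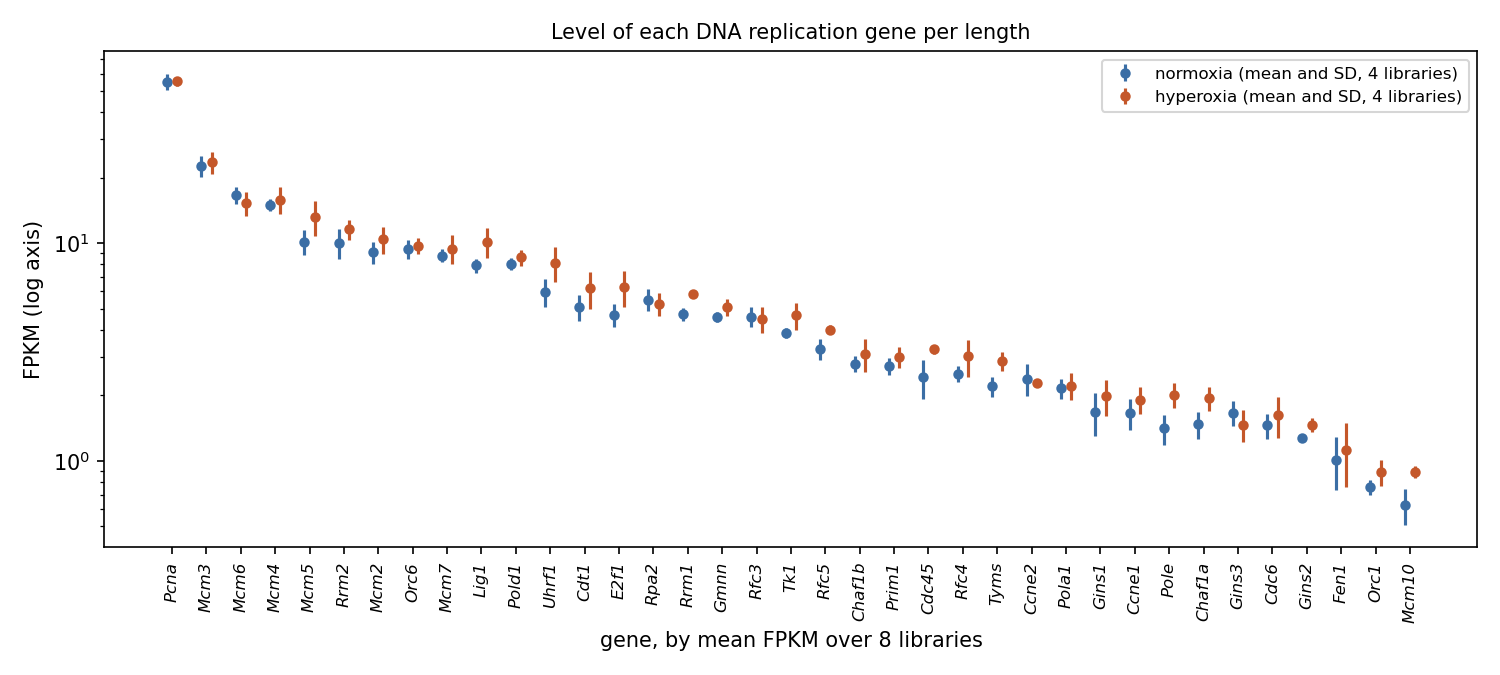
Deposited FPKM (log axis) of the 37 DNA replication genes in normoxia and hyperoxia, ordered by level, with points for the mean and bars for the SD of 4 libraries. Pcna stands highest and Mcm10 lowest, and the points of the 2 conditions lie close together beside the distance between genes.

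Origin licensing was represented by 11 members, of which 1 rose (9.09%, beside 18.5% of all tested genes) and 10 did not pass the test. Their median log2 fold change was 0.14. In all 11 the highest hyperoxia library was hyperoxia 3. Mcm2 to Mcm7 encode the subunits of the ring-shaped helicase that is loaded onto origins. Mcm5 was the subunit that rose (ENSMUSG00000005410, chr8:75109569-75128439, plus strand). It stood at 35.8, 38.7, 48.6 and 40.4 CPM in normoxia 1 to 4 and at 49.05, 51.2, 66.9 and 45.3 CPM in hyperoxia 1 to 4. Hyperoxia 4 lay below normoxia 3, so the groups overlapped, and the mean went from 40.9 ± 5.48 to 53.1 ± 9.53 CPM (± SD, n = 4 here and for the means of the other genes; 0.38 log2 units, SE 0.125, adjusted p = 0.0377). The 6 subunits ranged from -0.13 to 0.38 with a median of 0.093, and whether Mcm5 differed from the others was not tested. Mcm3, the most abundant of them, stood at 74.4, 82.3, 92.02 and 94.95 CPM in normoxia and at 81.8, 84.2, 103 and 85.8 CPM in hyperoxia. Its groups overlapped over most of their range (log2 fold change 0.047, SE 0.0916, adjusted p = 0.727). For the loading factors, the log2 fold change was 0.28 for Cdt1 (adjusted p = 0.143), 0.23 for Orc1, 0.15 for Cdc6 and 0.050 for Orc6, and it was 0.14 for Gmnn, the geminin inhibitor that keeps Cdt1 from reloading origins.

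The promoters of 31 members were found in RefSeq's table for build GRCm38.p6, as windows of 300 bases around the start site, and they were searched on both strands for the E2F motif, spelled TTTCCCGC, TTTCGCGC, TTTGCCGC or TTTGGCGC. A match was present for 13 of the 31 members (41.9%) and for 2.6% of all 27025 genes in the table. Of the 2 comparison lists described below, other replication genes had a match in 34.8% and mitosis genes in 8%, so the motif was not particular to the members. A match was present for 3 of the 10 risen members with a window and for 10 of the 21 others. A match is a description of letters. Their absence from a window says nothing about binding elsewhere, or about related spellings in that window, which were not searched. The CCAAT box of NF-Y was found for 61.3% of members and 41.1% of all genes, and for 56.5% of other replication genes and 84% of mitosis genes. The TTTGAA letters of the CHR element were found for 12.9% of members and 20.2% of all genes, and for 23.9% of other replication genes and 76% of mitosis genes. The 200 bases before the start site are printed for 4 members to show what rising and not rising genes carry, with E2F matches in capitals. Mcm5 (GRCm38.p6, chr8:75109309-75109508, plus strand) rose and holds overlapping matches on both strands. Uhrf1 (chr17:56304113-56304312, plus strand, its second listed start site) rose and holds 1 match, while the window at its first listed start site (chr17:56303137-56303336) holds 0 and is not printed. Mcm6 (chr1:128359706-128359905, minus strand) did not pass the test and holds 3 matches. Rrm1 (chr7:102441495-102441694, plus strand) rose and holds none of the spellings searched in this window.
Mcm5: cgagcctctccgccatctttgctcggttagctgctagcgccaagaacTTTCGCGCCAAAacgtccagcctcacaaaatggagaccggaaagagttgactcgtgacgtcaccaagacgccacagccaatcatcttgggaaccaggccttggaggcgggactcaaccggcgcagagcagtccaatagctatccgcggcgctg
Uhrf1: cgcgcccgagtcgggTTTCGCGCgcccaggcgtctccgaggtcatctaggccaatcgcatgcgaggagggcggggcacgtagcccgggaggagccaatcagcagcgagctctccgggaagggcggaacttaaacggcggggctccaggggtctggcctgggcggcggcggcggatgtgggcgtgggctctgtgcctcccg
Mcm6: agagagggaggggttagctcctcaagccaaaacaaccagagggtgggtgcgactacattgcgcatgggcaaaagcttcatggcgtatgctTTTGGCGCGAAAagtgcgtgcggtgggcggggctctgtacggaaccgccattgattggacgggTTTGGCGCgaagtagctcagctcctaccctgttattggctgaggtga
Rrm1: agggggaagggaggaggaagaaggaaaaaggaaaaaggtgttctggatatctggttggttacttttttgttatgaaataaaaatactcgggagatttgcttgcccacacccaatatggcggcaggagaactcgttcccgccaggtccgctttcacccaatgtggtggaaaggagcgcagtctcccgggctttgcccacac

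Helicase activation was represented by 5 members, of which 2 rose (40%, beside 18.5% of all tested genes), with a median log2 fold change of 0.23. Cdc45 (ENSMUSG00000000028, chr16:18780447-18811987, minus strand) joins the MCM ring to form the active helicase. It stood at 6.06, 8.59, 9.85 and 9.67 CPM in normoxia 1 to 4 and at 10.8, 11.9, 11.5 and 11.6 CPM in hyperoxia 1 to 4. Every hyperoxia library was above every normoxia library, and normoxia 1 was the lowest of all. The mean went from 8.54 ± 1.74 to 11.5 ± 0.485 CPM (0.42 log2 units, SE 0.143, adjusted p = 0.0410). Cdc45 no longer passed the test in 7 of the 16 alternative analyses. Mcm10 (ENSMUSG00000026669, chr2:4989714-5012791, minus strand) is needed for origins to open and was the least abundant member. It stood at 3.67, 5.58, 5.59 and 4.58 CPM in normoxia and at 6.45, 7.48, 6.81 and 6.82 CPM in hyperoxia. The groups did not overlap, with means of 4.86 ± 0.919 and 6.89 ± 0.426 CPM (0.50 log2 units, SE 0.150, adjusted p = 0.0238). Of the GINS subunits, Gins2 had groups that did not overlap without passing the test (log2 fold change 0.20, adjusted p = 0.196), Gins1 stood at 0.23 and Gins3 at -0.19, the lowest log2 fold change of the members. Across the members the groups did not overlap, with hyperoxia above, for 8 of 37 (21.6%), beside 17.8% of all tested genes, and with hyperoxia below for 0, beside 17.6%.

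Polymerases, the clamp and its loader gave 9 members, of which 2 rose (22.2%, beside 18.5% of all tested genes). Their median log2 fold change was 0.089. Pole (ENSMUSG00000007080, chr5:110286306-110337474, plus strand) is the catalytic subunit of polymerase epsilon, which copies the leading strand, and it had the largest log2 fold change of the members. It stood at 12.1, 17.4, 16.95 and 17.01 CPM in normoxia 1 to 4 and at 20.3, 21.9, 26.8 and 21.4 CPM in hyperoxia 1 to 4. The groups did not overlap, and normoxia 1 lay well below the other normoxia libraries. The mean went from 15.9 ± 2.54 to 22.6 ± 2.89 CPM (0.51 log2 units, SE 0.128, adjusted p = 0.0104), and without both normoxia 1 and hyperoxia 3 the log2 fold change was 0.30 (adjusted p = 0.0190, edgeR). Rfc5 (ENSMUSG00000029363, chr5:117378103-117389047, minus strand), a subunit of the clamp loader, stood at 13.2, 16.3, 17.1 and 15.1 CPM in normoxia and at 18.7, 18.2, 20.03 and 18.4 CPM in hyperoxia. Here too every hyperoxia library was above every normoxia library (0.29 log2 units, SE 0.0909, adjusted p = 0.0308). Rfc5 no longer passed the test in 7 of the 16 alternative analyses, while Pole passed in all 16. Pcna (ENSMUSG00000027342, chr2:132249162-132253314, minus strand), the clamp itself and the highest member, stood at 117, 136, 139 and 142 CPM in normoxia and at 127, 134, 141 and 134 CPM in hyperoxia. Both group means were close to 134 CPM, and the log2 fold change was 0.0010 (SE 0.0632, adjusted p = 0.991). For the other members of the group, log2 fold changes were 0.26 for Rfc4 and -0.048 for Rfc3 of the loader, 0.14 for Prim1, the catalytic primase subunit, 0.037 for Pola1 and 0.089 for Pold1 of the other replicative polymerases, and -0.066 for Rpa2 of the single-strand binding complex.

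Okazaki fragments, the short pieces of the lagging strand, are trimmed by Fen1 and joined by Lig1. Lig1 (ENSMUSG00000056394, chr7:13277283-13311433, plus strand), the DNA ligase of replication, rose. It stood at 32.2, 31.6, 36.1 and 36.1 CPM in normoxia 1 to 4 and at 38.6, 45.2, 52.1 and 37.6 CPM in hyperoxia 1 to 4. The groups did not overlap, though hyperoxia 4 lay just above the highest normoxia libraries (0.35 log2 units, SE 0.102, adjusted p = 0.0210). The log2 fold change of Fen1 was 0.16 (SE 0.283, adjusted p = 0.702), on few counts, and 78.8% of its exon bases lie over the exons of Gm10143 on the other strand.

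Nucleotide supply gave 4 members, of which 2 rose (50%, beside 18.5% of all tested genes), with a median log2 fold change of 0.28. Rrm1 (ENSMUSG00000030978, chr7:102441695-102469771, plus strand) is the large subunit of ribonucleotide reductase, which makes deoxyribonucleotides. It stood at 47.6, 51.1, 56.1 and 54.7 CPM in normoxia 1 to 4 and at 63.7, 67.8, 66.1 and 61.6 CPM in hyperoxia 1 to 4. The groups were clear of each other, and hyperoxia 3 was not the highest library. The mean went from 52.4 ± 3.83 to 64.8 ± 2.75 CPM with the lowest adjusted p of the members (0.31 log2 units, SE 0.0606, adjusted p = 0.00264). Without both normoxia 1 and hyperoxia 3 the log2 fold change of Rrm1 was 0.25 (adjusted p = 0.0176, edgeR). Rrm2, the small subunit whose level follows S phase, stood at 21.4, 29.8, 30.1 and 31.2 CPM in normoxia and at 33.1, 29.8, 36.7 and 29.6 CPM in hyperoxia. Hyperoxia 2 and hyperoxia 4 lay within the normoxia range, and the log2 fold change was 0.20 (SE 0.117, adjusted p = 0.216). Tyms (ENSMUSG00000025747, chr5:30058202-30073617, minus strand), thymidylate synthase, stood at 12.4, 14.2, 12.1 and 15.3 CPM in normoxia and at 17.8, 18.4, 19.1 and 15.2 CPM in hyperoxia. Hyperoxia 4 fell just under normoxia 4, while the other hyperoxia libraries were above all of normoxia (0.38 log2 units, SE 0.105, adjusted p = 0.0157). Tk1, the thymidine kinase of the salvage route, had a log2 fold change of 0.26 (adjusted p = 0.0624).

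S phase entry was represented by E2f1 and the E-type cyclins Ccne1 and Ccne2, which activate CDK2. Of these 3 members, 1 rose (33.3%, beside 18.5% of all tested genes). E2f1 (ENSMUSG00000027490, chr2:154559407-154569892, minus strand), a transcription factor that activates replication genes, stood at 12.5, 14.5, 16.5 and 16.1 CPM in normoxia 1 to 4 and at 17.2, 19.3, 25.1 and 17.9 CPM in hyperoxia 1 to 4. The groups did not overlap, and hyperoxia 3 stood well above the other libraries (0.41 log2 units, SE 0.133, adjusted p = 0.0331). Without hyperoxia 3 the log2 fold change of E2f1 was 0.28 (adjusted p = 0.0783, edgeR). Ccne1 and Ccne2 had log2 fold changes of 0.20 and -0.069 (adjusted p = 0.385 and 0.714).

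Chromatin behind the fork was represented by 3 members, of which 2 rose (66.7%, beside 18.5% of all tested genes). Their median log2 fold change was 0.39. Both calls depended on single libraries: neither Uhrf1 nor Chaf1a passed the test without hyperoxia 3 or without normoxia 1. Over the 16 alternative analyses, Uhrf1 no longer passed in 5 and Chaf1a in 6. Uhrf1 (ENSMUSG00000001228, chr17:56303321-56323486, plus strand) brings the maintenance DNA methyltransferase to newly copied DNA. It stood at 21.6, 25.04, 30.6 and 25.2 CPM in normoxia 1 to 4 and at 33.8, 31.998, 43.8 and 29.2 CPM in hyperoxia 1 to 4. Hyperoxia 4 lay below normoxia 3, and hyperoxia 3 was the highest by a wide margin (0.44 log2 units, SE 0.133, adjusted p = 0.0255). Chaf1a (ENSMUSG00000002835, chr17:56040439-56072289, plus strand) is the large subunit of chromatin assembly factor 1, which deposits histones on new DNA. It stood at 10.8, 12.5, 14.4 and 14.8 CPM in normoxia and at 14.4, 17.95, 19.5 and 17.1 CPM in hyperoxia. Hyperoxia 1 lay just below normoxia 4, so the groups overlapped (0.39 log2 units, SE 0.124, adjusted p = 0.0294), and the partner subunit Chaf1b stood at 0.14 (adjusted p = 0.401). The exons of Chaf1a share 52.5% of their bases with Ubxn6 on the other strand, at 15.4 CPM, and whether the counting used strand is not given in the sources used here, so its value is uncertain. The corresponding share was 67.3% for Gins2, over Gse1 at 89.1 CPM. It was 10.7% for Rfc5 (over Wsb2, 76.5 CPM), 5.96% for Cdc45 (over Ufd1, 62.5 CPM) and 5.79% for Lig1 (over Zswim9, 10.3 CPM). For Ccne2 and Rfc4, which did not pass the test, it was 17.4% (over Ints8, 40.2 CPM) and 12.7% (over Eif4a2, 352 CPM). The values of these genes carry the same uncertainty.

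Lists of other cell cycle genes were counted beside the members, and no difference between lists was tested. Of 56 further replication genes, 5 rose (8.93%, beside 18.5% of all tested genes) and 12 fell (21.4%, beside 17.1%). Their median log2 fold change was 0.016. The risen genes were Ticrr, which helps load Cdc45 (0.53), E2f3 (0.43), the primase subunit Prim2 (0.32), the phosphatase Cdc25a (0.29) and the ribonuclease H2 subunit Rnaseh2c (0.27). Among the 12 that fell, the 5 with the largest change were Rnaseh2a, the catalytic subunit of ribonuclease H2 (-0.72), the histone chaperone Nasp (-0.60), Timeless, which protects the fork (-0.49), the origin recognition subunit Orc5 (-0.49) and the ribonucleotide reductase subunit Rrm2b (-0.44). Of 30 mitosis genes, 0 rose and 2 fell, Cenpa (-0.43) and Cdc20 (-0.40), with a median of -0.20. The share that fell was 6.67%, below the 17.1% of all tested genes. By unadjusted p under 0.05 from edgeR, 5 of the 30 mitosis genes were lower and 0 higher. Of the 15564 genes tested, 3451 were lower by that threshold. DESeq2 and limma-voom also gave 0 mitosis genes higher at an adjusted p under 0.05. Normoxia 1 was the lowest normoxia library in 30 of 30 mitosis genes, a median of 0.61 log2 units below the others. Without normoxia 1, 16 of the 30 passed the test as lower, beside 15.5% of all tested genes. The mitosis share was thus below that of all tested genes with all 8 libraries and above it without normoxia 1. Hyperoxia 3 was the highest hyperoxia library in 16 of 30 mitosis genes, beside 31 of 37 replication members.

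**Figure D4:**
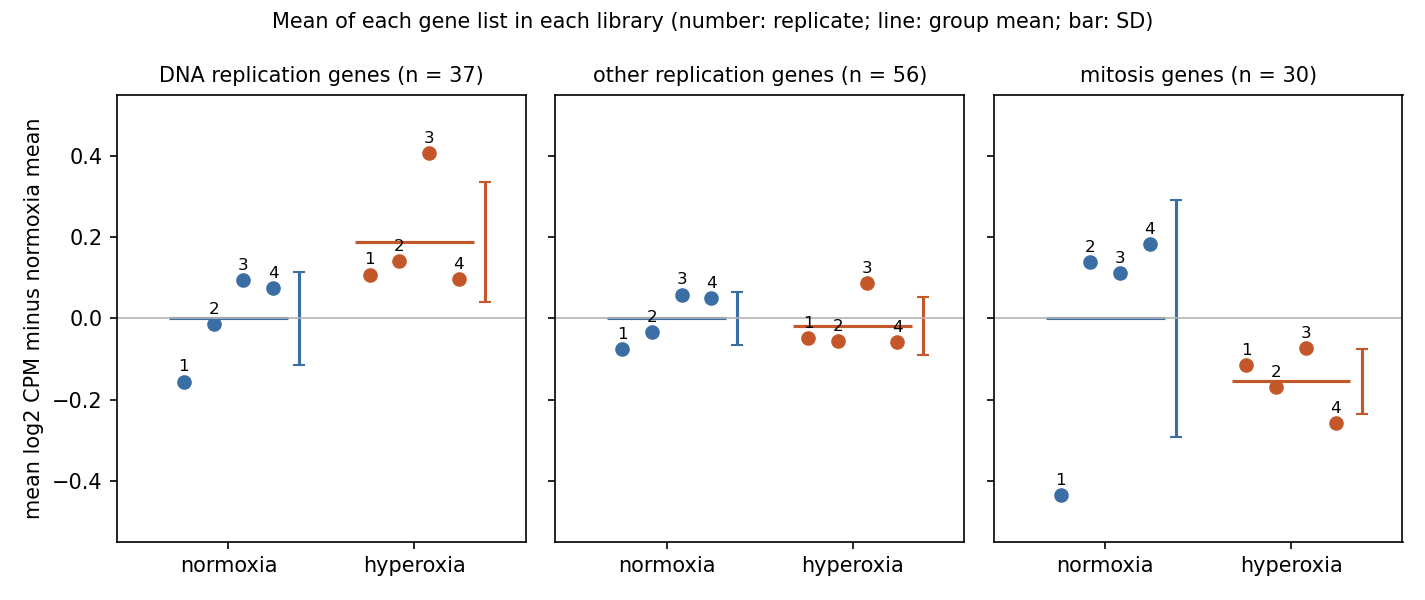
Mean log2 difference from the normoxia mean (y axis) in each library, by condition, for the 37 DNA replication genes, 56 other replication genes and 30 mitosis genes, with a number beside each point for the replicate, a line for the group mean and a bar for the SD. Hyperoxia 3 stands at 0.41 for the DNA replication genes, and normoxia 1 at -0.44 for the mitosis genes.

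Regulators that act before S phase were counted in the same way. Of 13 D cyclins, CDK inhibitors and pocket proteins, 12 were tested. Of these 12, 5 rose and 5 fell (41.7% each), beside 18.5% and 17.1% of all tested genes. Cdkn1a, which encodes the CDK inhibitor p21, had the largest change, at 144, 177, 151 and 199 CPM in normoxia 1 to 4 and 900.3, 963, 833 and 941 CPM in hyperoxia 1 to 4 (2.44 log2 units, SE 0.0998, adjusted p = 8.44e-08). The cyclin gene Ccnd1, which drives cells out of G1, stood at a log2 fold change of 1.16, Ccnd2 at 0.74, Ccnd3 at 0.43 and the inhibitor Cdkn2b at 0.78. The fallen genes were the inhibitors Cdkn2d (-0.50), Cdkn1b (-0.41) and Cdkn2c (-0.36) and the pocket proteins Rbl1 (-0.33) and Rb1 (-0.26). Cdkn1a and Ccnd1 passed an absolute log2 fold change of 1, which no replication member did.

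Markers of other lung cells also differed between the conditions, and hyperoxia 3 and normoxia 1 stood apart in several of them. All 8 endothelial markers were present, at a summed level of 14265 to 15276 CPM in normoxia and 13949 to 14712 CPM in hyperoxia, with 3 higher and 3 lower. Single markers moved within that sum. Tek stood at 1089 to 1236 CPM in normoxia and 627 to 746 CPM in hyperoxia, and Emcn at 243 to 278 and 333 to 357 CPM. Beside the counts of each marker list, 18.5% of all tested genes were higher and 17.1% lower. The 8 markers of alveolar type 2 cells, which make surfactant, were all higher, at 237 to 335 CPM in normoxia and 759 to 2287 CPM in hyperoxia. Hyperoxia 3 had the lowest of these hyperoxia sums, 759 CPM beside 2007 to 2287 CPM in the other hyperoxia libraries. Normoxia 1 had the highest of the normoxia sums. All 6 alveolar type 1 markers were higher, at 72.4 to 87.3 CPM in normoxia and 145 to 401 CPM in hyperoxia. Again hyperoxia 3 was the lowest hyperoxia library and normoxia 1 the highest normoxia library. Of the 7 fibroblast and 7 mural cell markers, 6 of each were tested, and 4 and 5 were higher. The fibroblast sums were 114 to 222 CPM in normoxia and 172 to 407 CPM in hyperoxia. The mural cell sums were 20.99 to 44.6 CPM in normoxia and 41.04 to 98.3 CPM in hyperoxia. In both, normoxia 1 was the highest of the normoxia libraries and hyperoxia 3 the lowest of the hyperoxia libraries. Leukocyte markers gave 0 higher and 1 lower of 6, at 107 to 200.05 CPM in normoxia and 102 to 169 CPM in hyperoxia. Erythroid markers gave 3 lower of 3 tested, at 101 to 187 CPM in normoxia and 76.6 to 111 CPM in hyperoxia. Hyperoxia 3 was the lowest hyperoxia library in the leukocyte and erythroid sums too. The highest normoxia library was normoxia 3 for leukocytes and normoxia 1 for erythroid markers. No marker was at 0 in every library. The mitochondrial share of counts was 0.864% to 1.05% in normoxia and 1.21% to 1.43% in hyperoxia. The part of these differences in the replication result was not tested. Library totals ran from 16098086 to 18300730 counts.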

How the data were processed

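Bulk RNA-seq of lung ECs was deposited by the authors in 2 tables, counts per gene and FPKM. The submitters' processing notes name HISAT2 2.0.5, featureCounts 1.5.0-p3 and mm10. Whether counting used strand, and how reads that match several genes were treated, are not given in the sources used here. The deposited FPKM are those counts per gene length and library total, up to a factor of 0.974 to 1.01 that is fixed for each library, and were used only to compare levels between genes.

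Groups were taken from the sample labels. The members, role groups and comparison lists were chosen with earlier results of these data known, so their counts are descriptions. All genes were tested together in R 4.3.3 by edgeR 4.0.16, with its quasi-likelihood test (TMM, filterByExpr at its defaults, group as the only term), with Benjamini-Hochberg adjustment over the 15564 genes tested. The study had used DESeq2 on counts. DESeq2 1.42.0 and limma-voom (limma 3.58.1), other normalizations, no filter, protein-coding genes only, a replicate block and leaving out libraries were the alternatives. The script was tested on simulated data. CPM are counts divided by the TMM-normalized library size and scaled to 1 common total, log2 CPM used a prior count of 2, and the SE follows from the F statistic.

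Per-library values are given for members past an adjusted p of 0.05 and for the most abundant member of each of the 7 role groups. From the comparison lists, the genes named are up to 5 in each direction past that threshold for the replication and mitosis lists, and all past it for the 13 regulators. No marker list was used to correct a value. Libraries of 1 group differed by more than counting noise (chi-square per degree of freedom 5.08 to 17.9), so none was a copy of another.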

Additional observations from a re-analysis of the deposited data

Results flagged for a closer look

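Each group of 4 libraries was examined for a library whose gap to its nearest neighbour took up more of the group's whole range than Dixon's critical value for 4 samples at the 95% level allows. Over 76 groups, 9 passed, where chance would give 3.8 if the groups were independent, with about 1 group in 20 picked. The groups share the same 8 libraries, and the mean over the members is built from the members. They are thus not independent, and 9 beside 3.8 cannot show an excess over chance. Hyperoxia 3 was the library that stood apart, as the highest, for Cdc6 (gap 0.877 of the range), Cdt1 (0.877), Mcm2 (0.936), Mcm4 (0.870) and Pold1 (0.887), and for the mean over the 37 DNA replication genes (0.853). Normoxia 1 stood apart as the lowest for Pole (0.927) and Rrm2 (0.878). Normoxia 3 stood apart as the highest for Rpa2 (0.835). These values are given with no explanation.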

How the results depend on the processing

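Under DESeq2 size factors, library totals only, no filter, DESeq2, limma-voom and protein-coding genes only, the 11 risen members were the same genes and 0 were lower. The deviations of same-numbered normoxia and hyperoxia libraries correlated at 0.12, 0.036, -0.13 and -0.14. Those of differently numbered libraries correlated at -0.25 to 0.28, so the replicate numbers gave no sign of pairing. With so few libraries this check cannot exclude a pairing. With the replicate block 12 members were higher, the 11 and Cdt1 (adjusted p = 0.0405 by edgeR), 0 were lower, the median log2 fold change was 0.20, and no other call of a member changed. Leaving out 1 library at a time gave 4 to 11 members higher, 0 to 1 lower, 2 to 16 of 30 mitosis genes lower and 3 to 7 other replication genes higher. In those analyses 15.1% to 17.8% of all tested genes were higher and 13.4% to 16.4% lower. The median over the members then ranged from 0.10 to 0.23. Without both normoxia 1 and hyperoxia 3, 2 members were higher, the median was 0.049, 15 of 30 mitosis genes were lower and 3 other replication genes were higher. Of all tested genes, 16.9% were then higher and 14.9% lower. With library totals only, 3 other replication genes were higher. The cause of these changes was not tested, and leaving out libraries also lowers the number of samples.

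Of 592 member values under 16 alternatives, 515 kept direction and side of the threshold, 44 no longer passed it, 3 passed it newly and 30 changed sign, all of members that did not pass the test. Where a sign changed on leaving out 1 library, or both normoxia 1 and hyperoxia 3, the log2 fold change over those analyses ranged from -0.0076 to 0.10 for Orc6, from -0.099 to 0.21 for Cdc6, from -0.10 to 0.096 for Mcm3, from -0.050 to 0.12 for Mcm4, from -0.031 to 0.16 for Mcm7, from -0.012 to 0.37 for Gins1, from -0.092 to 0.12 for Pola1, from -0.085 to 0.031 for Pcna, from -0.16 to 0.016 for Rfc3, from -0.17 to 0.015 for Rpa2, from -0.034 to 0.34 for Fen1, from -0.15 to 0.047 for Ccne2 and from -0.013 to 0.21 for Chaf1b. Pcna stood at -0.021 with library totals only and at -0.016 with protein-coding genes only. Depth limited the lowest members most: Fen1 had as few as 28 counts in a library. With 4 libraries a group, small changes in most members could not be told from library spread.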
